A study of Mus musculus with 12 samples.

Results

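Interferon-stimulated genes were described here across 12 mouse carotid artery arrays. They are a list of 41 genes that interferon is known to switch on, and they were taken by the gene symbol of the platform annotation. Of these, 40 had a probe among the 19057 genes with a probe, and where several probes carried a symbol, the one with the highest mean intensity was used. The member Ifi44 had no probe under that symbol and was not analysed here. RNA from explanted carotid arteries was labelled with biotin and hybridised to one-colour Illumina arrays. The arteries came from mice labelled FibVKO, a knockout of fibulin-5 (KO), and from wild type mice (WT). The Fbln5 gene makes fibulin-5, which tethers elastic fibres to cells as they form. In both lines the left common carotid artery (LCA) was partially ligated, which brings disturbed flow, and the right common carotid artery (RCA) of the operated animals was not touched. The arteries were taken 1 day after ligation. The groups were KO LCA, KO RCA, WT LCA and WT RCA, with 3 arrays each, and the study asked how fibulin-5 bears on stiffening and atherosclerosis under disturbed flow. All 12 samples carried the strain tag C57Bl/6J, the design text also calls the FibVKO line a knockdown, and the sources used here give neither the allele nor sex or age. No unoperated mouse was among the groups, so RCA is an artery opposite a ligated one. The labels do not say that each array came from a separate mouse, so a p-value here reflects how these samples vary among themselves, which may be technical.

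Cells make type I interferon when their sensors meet viral or misplaced nucleic acid. The interferon receptor then activates the kinases JAK1 and TYK2. They switch on a complex with the subunits STAT2 and IRF9, which binds the interferon-stimulated response element (ISRE) in the promoters of target genes. Interferon gamma, a product of lymphocytes, instead acts through the gamma-activated site (GAS) and induces IRF1, which binds ISRE-like sequences itself. The products block viral entry, destroy or silence viral RNA, trim peptides for antigen presentation or dampen the pathway. Endothelial cells, smooth muscle cells and macrophages of the artery all respond to interferon.

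The promoter stretches below show the ISRE core that most of these genes are known for, in members on both sides of detection on these arrays. They are from RefSeq (GRCm38.p6), 5′ to 3′ on the gene's own strand, end before the annotated start, and hold the core GAAANNGAA or its reverse complement in capitals.
Irgm1, chr11:48871421-48871475, minus strand: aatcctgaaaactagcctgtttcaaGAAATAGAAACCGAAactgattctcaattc
Ifit3, chr19:34583349-34583460, plus strand: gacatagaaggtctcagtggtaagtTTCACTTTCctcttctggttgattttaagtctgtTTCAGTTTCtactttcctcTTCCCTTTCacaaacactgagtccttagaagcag
Gbp3, chr3:142559975-142560039, plus strand: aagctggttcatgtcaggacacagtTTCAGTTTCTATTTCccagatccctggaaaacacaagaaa
Bst2, chr8:71537563-71537627, minus strand: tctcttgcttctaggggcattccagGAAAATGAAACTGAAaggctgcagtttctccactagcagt
Isg15, chr4:156200851-156200921, minus strand: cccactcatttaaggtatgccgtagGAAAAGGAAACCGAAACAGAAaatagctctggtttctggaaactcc
Ifit1, chr19:34640755-34640838, plus strand: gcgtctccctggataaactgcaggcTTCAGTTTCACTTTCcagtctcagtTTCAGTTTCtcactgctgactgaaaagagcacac
The first 4 belong to members described on every array below. Isg15 and Ifit1 were added after their values were seen, because their probes lay at or near background.

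In Irgm1, Gbp3 and Bst2 a pair of cores overlapped, and in Isg15 3 cores followed each other in 1 run. Ifit3 carried 3 separate cores, whose first bases lay 155, 121 and 102 bases before the start. In Ifit1 the cores began 109, 103 and 84 bases before it. Promoter windows from 250 bases before to 50 bases after the start were matched for 30 of the 40 members. The core, searched on both strands, was found in 16 of these 30, or 53.3%, against 9.76% of 27025 genes with a window. The GAS letters TTCNNNGAA, which can overlap the core, were found in 9 of 30, or 30.0%, against 9.55% of genes. By detection, the core was found in 6 of 13 matched members whose probe exceeded background on at least 11 arrays, and in 5 of 10 whose probe did so on 3 arrays or fewer. A match is a description of the letters only.

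Intensities were linear values that had been quantile normalized, with a median of 93.6 over all probes. The guide to background was the 95th percentile, on each array, of 1504 probes for olfactory and vomeronasal receptors, and a probe above it is called above background. This level lay between 95.7 and 107 on 11 arrays and at 126 on WT LCA replicate 3. That array also had the lowest median correlation with the others, 0.643, where the others had 0.744 to 0.844. Where leaving it out moved a gene's difference given below by over 1.5 times, the value without it is given too. This was not done for further probes of a gene. The Fbln5 probe was above background on no array, with 81.7 to 88.4 in KO LCA and 80.6 to 97.4 in KO RCA, against 86.5 to 88.0 in WT LCA and 84.9 to 88.0 in WT RCA, so it checks nothing about the labels. Endothelial markers were measured in every group, with 10 and 11 of 12 above background on all 3 arrays of KO LCA and KO RCA, against 8 and 11 in WT LCA and WT RCA. Of 10 smooth muscle markers, 6 and 4 were so in KO LCA and KO RCA, against 1 and 3 in WT LCA and WT RCA. The smooth muscle markers summed to 2851 to 4110.4 in KO LCA and 1707 to 2685 in KO RCA, against 985 to 1885 in WT LCA and 1128 to 1428 in WT RCA. Of these 10, Myh11, the smooth muscle myosin, stayed within 87.3 to 118 and Tagln within 88.3 to 118, above background on 7 and 5 arrays, and Cnn1, Lmod1 and Des were so on 1 array each, whereas the endothelial Pecam1 read 753 to 3593. Acta2 and Tpm1 were the brightest of the 10, at up to 1206 and 989. Several markers that define smooth muscle were thus at or near background in RNA labelled as carotid artery, and the labels do not say which layers it came from. Erythrocyte markers, 4 in number, summed to 1377 to 2847 in KO LCA and 2071 to 5387 in KO RCA, against 1372 to 1988 in WT LCA and 694 to 1894 in WT RCA, without overlap in RCA, and the KO mean of each exceeded the WT mean in LCA and in RCA. The arrays therefore differed in their smooth muscle and erythrocyte signal between the lines, and their part in the results that follow was not tested.

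A minority of the interferon-stimulated genes stood clear of background on every array, although a larger share than of all genes. The probe exceeded background on all 12 arrays for 7 of the 40 members, namely Ifitm3, Ifitm1, Irgm1, Ifi27, Ifit3, Xaf1 and Dtx3l, and on at least 11 arrays for 15. These shares were 17.5% and 37.5%, where 7.98% and 17.4% of the 19057 genes with a probe were so. It did so on no array for 7 members, which were Mx1, Mx2, Oas1a, Oas3, Ifit1, Irf7 and Tap1, and on 1 to 10 arrays for the other 18. The share above background on no array was 17.5% for the members and 29.4% for all genes. Among the dim members were the genes used most often as readouts of type I interferon. Isg15, which encodes a ubiquitin-like protein that is attached to other proteins, exceeded background on 3 arrays. Usp18, which encodes the protease that removes it and restrains the receptor, did so on 1 array. Mx1 is a special case as background, since C57BL/6 mice carry a defective allele of this antiviral GTPase. By group, 17 members were above background on all 3 arrays of KO LCA and 18 of KO RCA, against 9 of WT LCA and 16 of WT RCA. The count for WT LCA followed replicate 3, on which 10 members were above background, where the other 11 arrays had 19 to 31. On those 11 arrays 47.5% to 77.5% of members were above background, where 28.5% to 48.5% of all genes were. Differences between probes in how they bind keep these intensities from ranking the genes by expression.

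**Figure D1:**
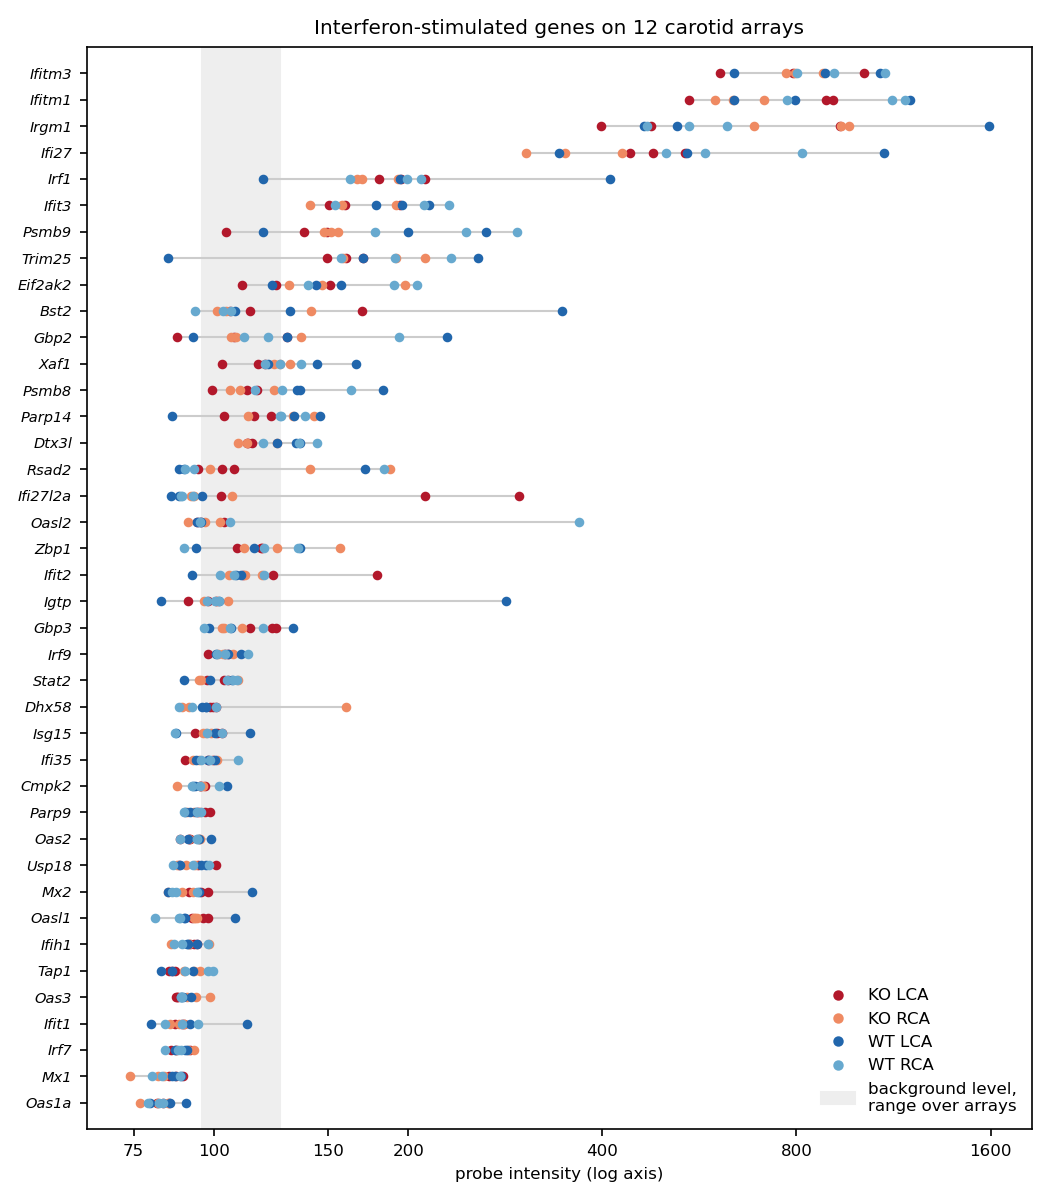
Intensity of each of the 40 members with a probe (rows, ordered by mean probe intensity) on the 12 arrays, on a log axis, with points coloured by group and a grey band for the range of the background level over arrays, 95.7 to 126. Ifitm3, Ifitm1, Irgm1 and Ifi27 lie above 300 on every array, and most other members lie in or near the band.

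No member passed an adjusted p of 0.05 in limma in any of the 5 comparisons. Of the 40 members, 35 passed the filter on dim probes and were tested among 15395 genes, and Ifit1, Irf7, Mx1, Oas1a and Oas3 were not. For LCA against RCA in KO arteries, no gene passed (0% of genes), and 1 member had an unadjusted p under 0.05, where 6.87% of genes did. In the WT ligation comparison again no gene passed (0%), and 1 member had such a p, where 6.9% of genes did. Between KO and WT, the RCA comparison had 3 such members, against 4.29% of genes, with 0% of genes past the adjusted threshold. The LCA comparison had 5 such members, against 6.81% of genes, and 1 gene that is not a member passed (0.0065%). The test of whether ligation acted differently in KO and WT had 1 such member, against 3.52% of genes, and 0% passed. In these bulk samples, fewer cells of a type and less RNA per cell cannot be told apart.

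The membrane factors Ifitm1 and Ifitm3 block the fusion of viruses with cell membranes and are neighbours on chromosome 7. Ifitm3 intensity was 789, 609 and 1018 in KO LCA and 795, 771 and 879 in KO RCA, against 1076, 641 and 885 in WT LCA and 801, 1096 and 914 in WT RCA. The groups overlapped throughout, and the KO minus WT difference in LCA was -0.11 ± 0.22 (SE) on the log2 scale, with a 95% interval of -0.60 to 0.39. Its neighbour Ifitm1 had intensities of 889.6, 544 and 911 in KO LCA and 597, 714 and 638 in KO RCA, against 1202, 797 and 639 in WT LCA and 773, 1126 and 1180.2 in WT RCA. All 3 KO RCA arrays lay below all 3 WT RCA arrays. The difference was -0.64 ± 0.27 there, adjusted p = 1.00 in limma, and -0.16 ± 0.27 in LCA, or -0.36 without WT LCA replicate 3. Of the other 4 Ifitm1 probes, the next had a mean of 124 and differed by -0.04 in RCA.

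Bst2 encodes tetherin, which holds budding virus on the cell surface. Its intensity was 114, 169.5 and 106 in KO LCA and 141, 101 and 104 in KO RCA, against 108, 131 and 346 in WT LCA and 106, 103 and 93.3 in WT RCA. WT LCA replicate 3 was highest, and KO LCA replicate 2 came next. Every WT LCA array still lay above every WT RCA array, and the WT ligation difference was 0.75 ± 0.38, adjusted p = 0.682 in limma. Without WT LCA replicate 3 the difference was 0.24, adjusted p = 0.878.

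Ifi27l2a and Ifi27 encode small hydrophobic membrane proteins of the same family, whose annotated spans overlap on chromosome 12 (RefSeq, GRCm38.p6). That is also the chromosome of Fbln5, with 23 protein-coding genes between it and this pair. Ifi27l2a intensity was 297, 102 and 213 in KO LCA and 107, 92.1 and 93.0 in KO RCA, against 95.8, 85.7 and 88.2 in WT LCA and 89.0, 89.3 and 92.8 in WT RCA. KO LCA replicates 1 and 3 stood apart from all other arrays, whereas KO LCA replicate 2 was within the range of KO RCA. The means were 204 ± 97.8 in KO LCA and 97.2 ± 8.09 in KO RCA, against 89.9 ± 5.27 in WT LCA and 90.4 ± 2.12 in WT RCA (SD, n = 3 each). No WT array was above background, so Ifi27l2a was at least 1.72-fold higher in KO LCA than in WT LCA, counted against the background level or the probe's own value where that was higher. The fitted KO minus WT difference in LCA was 1.05 ± 0.30, adjusted p = 0.429 in limma, and the groups did not overlap. Ligation in KO gave 0.94 ± 0.30, adjusted p = 0.715, and the groups overlapped. The ligation effect in KO minus that in WT was 0.95 ± 0.42, adjusted p = 0.902.

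One array decided whether Ifi27l2a passed. Without KO LCA replicate 2 the KO minus WT difference in LCA was 1.49, adjusted p = 0.00802 in limma, and the KO ligation difference was 1.38, adjusted p = 0.0149. Without KO LCA replicate 1 they were 0.72, adjusted p = 0.800, and 0.61, adjusted p = 0.966, and the interaction was 0.61.

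Some markers of adipocytes and most markers of fibroblasts were high in KO LCA as well. The 7 adipocyte markers summed to 979 to 1281 in KO LCA and 662 to 837 in KO RCA, against 662 to 906 in WT LCA and 696 to 879 in WT RCA. The KO LCA sums lay above those of every other array. Of these 7, 2 and 0 were above background on all 3 arrays of KO LCA and KO RCA, against 1 and 1 in WT LCA and WT RCA. Fabp4, a fatty acid carrier, read 427, 329 and 323 in KO LCA and 207, 143 and 93.4 in KO RCA, against 160.5, 117 and 302 in WT LCA and 146, 171 and 311 in WT RCA. Pck1, an enzyme of glycerol and glucose synthesis, read 337, 212 and 194 in KO LCA and 178, 104 and 90.5 in KO RCA, against 94.4, 90.9 and 89.6 in WT LCA and 91.9, 98.6 and 106 in WT RCA. Both were chosen after their values were seen, and both were highest on KO LCA replicate 1, the top array of Ifi27l2a. Both were higher on KO LCA replicate 2 than on replicate 3, whereas Ifi27l2a was lower there. Fabp4 also read 302 and 311 on replicate 3 of WT LCA and WT RCA, where Ifi27l2a was at background. Plin1 and Lep, which define adipocytes, were above background on no array, and Adipoq was so on 2. Of the 6 adipocyte markers tested, 3 were higher and 3 lower in KO LCA than in KO RCA. Against WT LCA, 4 were higher and 2 lower. The 10 fibroblast markers summed to 1621 to 2329.6 in KO LCA and 1382 to 1738 in KO RCA, against 1051 to 1485 in WT LCA and 1318 to 2184 in WT RCA. Of these 10, 7 and 5 were above background on all 3 arrays of KO LCA and KO RCA, against 1 and 3 in WT LCA and WT RCA. Above background on no array were 0 and 1 of them in KO LCA and KO RCA, against 1 and 1 in WT LCA and WT RCA. Dcn, a proteoglycan gene of fibroblasts named after its values were seen, had intensities of 604, 231 and 373 in KO LCA and 106, 278 and 107 in KO RCA, against 151, 253 and 139 in WT LCA and 117, 117 and 117 in WT RCA. Like Ifi27l2a, Dcn was higher on KO LCA replicates 1 and 3 than on replicate 2. The fibroblast sums of KO LCA overlapped those of KO RCA and WT RCA, but only with Pi16, the brightest of the 10, counted. The other 9 summed to 1376 to 1892 in KO LCA and 910 to 1276 in KO RCA. In WT LCA and WT RCA they summed to 961 to 1140 and 958 to 1365, so KO LCA lay above every other array. Of the 10, 9 were higher and 1 lower in KO LCA, both against KO RCA and against WT LCA. In each comparison 5 had an unadjusted p under 0.05 in limma, and none passed the adjusted threshold. The part of adipocyte and fibroblast signal in the Ifi27l2a values was not tested.

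Ifi27 itself had another pattern. Its intensity was 441, 479 and 537 in KO LCA and 349.5, 304 and 429 in KO RCA, against 541, 342 and 1093 in WT LCA and 576, 818 and 503 in WT RCA. In KO the 3 LCA arrays lay above the 3 RCA arrays, and in RCA the 3 KO arrays lay below the 3 WT arrays. The KO ligation difference was 0.44 ± 0.36, adjusted p = 0.834, and the KO minus WT difference in RCA was -0.79 ± 0.36, adjusted p = 1.00 in limma. A further Ifi27 probe read 286, 332 and 276 in KO LCA and 230.3, 186 and 247 in KO RCA, against 282, 366 and 271 in WT LCA and 516, 653 and 369 in WT RCA. It gave 0.44 for ligation in KO and -1.18 for KO minus WT in RCA, also without overlap. The probes parted on WT LCA replicate 3, which was the highest array for the first and an ordinary one for the further probe.

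Xaf1 encodes a partner of the apoptosis inhibitor XIAP that is strongly interferon-inducible. The Xaf1 probe read 103, 120.0 and 117 in KO LCA and 124, 131 and 127 in KO RCA, against 121, 145 and 166 in WT LCA and 136, 119.8 and 127 in WT RCA. All KO LCA arrays lay below all WT LCA arrays and below all KO RCA arrays. The KO minus WT difference in LCA was -0.34 ± 0.11, adjusted p = 0.501 in limma, and was -0.23 without WT LCA replicate 3. Another Xaf1 probe was above background on no array. Ifi35, whose product forms a complex with the interferon-induced protein NMI, exceeded background on 4 arrays, with a highest value of 109.

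Irgm1 and Igtp belong to the immunity-related GTPases of mice, and Gbp2 and Gbp3 to the guanylate-binding proteins, which attack membranes around intracellular microbes and are mainly induced by interferon gamma. Irgm1 read 398, 935 and 476 in KO LCA and 964, 937 and 687 in KO RCA, against 522, 464 and 1592 in WT LCA and 469, 625 and 545 in WT RCA. WT LCA replicate 3 was highest, and KO LCA replicate 2 lay with the KO RCA arrays, which were all above the WT RCA arrays. The KO minus WT difference in RCA was 0.65 ± 0.46, adjusted p = 1.00 in limma. The interaction was -1.03 ± 0.65, adjusted p = 0.902, and was -0.46 without WT LCA replicate 3. The other Irgm1 probes lay near background, with means of 104 and 89.9, and did not show these steps.

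The brightest of 10 markers of lymphocytes and plasmacytoid dendritic cells was highest on the same array as Irgm1. This was Siglech, a surface receptor of plasmacytoid dendritic cells named after its values were seen, with intensities of 479.8, 1086 and 421 in KO LCA and 698, 613 and 771 in KO RCA, against 472, 543 and 2083 in WT LCA and 528, 677 and 591 in WT RCA. Both genes peaked on WT LCA replicate 3 and, within KO LCA, on replicate 2, but Irgm1 was also high on KO RCA replicates 1 and 2, where Siglech lay among the other arrays. The 10 markers summed to 1253 to 1903 in KO LCA and 1461 to 1601 in KO RCA, against 1343 to 2964 in WT LCA and 1416 to 1483 in WT RCA, and the spread of these sums came from Siglech. The other 9 markers summed to 817 to 832 in KO LCA and 830.1 to 869 in KO RCA, against 839 to 881 in WT LCA and 801 to 893 in WT RCA, with WT LCA replicate 3 and KO LCA replicate 2 at 881 and 817. Ms4a1, the B cell antigen CD20, was also highest on WT LCA replicate 3, at 143. Ccr9, another gene of plasmacytoid dendritic cells, read 89.0 and 90.5 on WT LCA replicate 3 and KO LCA replicate 2, below background.

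Gbp3 read 125, 123 and 114 in KO LCA and 104, 103 and 110.3 in KO RCA, against 133, 106 and 98.1 in WT LCA and 106, 96.5 and 119 in WT RCA. In KO every LCA array lay above every RCA array, whereas in WT the groups overlapped. The KO ligation difference was 0.19 ± 0.11, adjusted p = 0.774 in limma, and the WT one 0.06 ± 0.11, or 0.15 without WT LCA replicate 3. A second Gbp3 probe, above background on 4 arrays, differed by 0.025 for ligation in KO, and its groups overlapped. Gbp2 ranged from 87.5 to 230.1 and was above background on 10 arrays, with its highest value on WT LCA replicate 1. Igtp was near background on 11 arrays, at 82.7 to 105, and read 283 on WT LCA replicate 1.

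Among the transcription factors, Irf1 encodes the factor through which interferon gamma and inflammatory signals reach ISRE-like sites. Its probe read 195, 212 and 180.3 in KO LCA and 169.5, 193 and 167 in KO RCA, against 194, 411 and 119 in WT LCA and 162, 209.6 and 199 in WT RCA. WT LCA held both the highest array, replicate 2, and the lowest, replicate 3, and the KO minus WT difference in LCA was -0.12 ± 0.35, with a 95% interval of -0.90 to 0.67. It was -0.53 without WT LCA replicate 3 and 0.36 without WT LCA replicate 2. Irf1 had 5 probes, and they disagreed in part. The probe ranked 3 by mean intensity was also highest on WT LCA replicate 2, at 323. Probes ranked 2 and 4 by mean intensity read 659 and 544 on WT RCA replicate 1, where the first read 162. Irf9 and Stat2, subunits of the ISRE-binding complex, stayed within 97.9 to 113 and 89.9 to 109. Irf7, the factor that amplifies interferon production, was above background on no array.

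The IFIT proteins bind viral RNA with foreign ends and stop its translation. Ifit3 read 194, 159.7 and 151 in KO LCA and 191, 141 and 158 in KO RCA, against 196, 215 and 179 in WT LCA and 154, 212 and 232 in WT RCA. All arrays were above background and the groups overlapped in every comparison. The KO minus WT difference was -0.23 ± 0.17 in LCA, with a 95% interval of -0.61 to 0.15, and -0.28 ± 0.17 in RCA. Ifit2 read 179, 123 and 111 in KO LCA and 105, 112 and 119 in KO RCA, against 108, 110.3 and 92.3 in WT LCA and 102, 119.7 and 108 in WT RCA. KO LCA replicate 1 was highest, and all KO LCA arrays lay above all WT LCA arrays. The difference there was 0.38 ± 0.16, adjusted p = 0.688 in limma, and was 0.18 without KO LCA replicate 1. A second Ifit2 probe, above background on 8 arrays, differed by 0.20 in LCA. It read 150, 112 and 108 in KO LCA, against 104, 96.0 and 121 in WT LCA, so those groups overlapped. Ifit1, whose promoter holds 3 cores, read at most 112 and was above background on no array.

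Psmb8, Psmb9 and Tap1 sit side by side on chromosome 17 in the major histocompatibility complex. Psmb8 and Psmb9 encode catalytic subunits of the immunoproteasome, which cuts proteins into peptides, and Tap1 encodes part of the transporter that carries the peptides to class I molecules. Psmb9 read 104, 138 and 149.8 in KO LCA and 152, 148 and 156 in KO RCA, against 264, 199.5 and 119 in WT LCA and 295, 178 and 246 in WT RCA. All KO RCA arrays lay below all WT RCA arrays, and WT LCA spread most, with replicate 3 at the level of the KO arrays. The KO minus WT difference was -0.63 ± 0.28 in RCA, adjusted p = 1.00, and -0.51 ± 0.28 in LCA, adjusted p = 0.759 in limma. Without WT LCA replicate 3 the LCA difference was -0.83, adjusted p = 0.406, and without WT LCA replicate 1 it was -0.26.

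Psmb8 read 116, 99.4 and 112 in KO LCA and 106, 109.8 and 124 in KO RCA, against 136, 135 and 183 in WT LCA and 127, 116 and 163 in WT RCA. In LCA every KO array lay below every WT array. The difference was -0.45 ± 0.15 in LCA, adjusted p = 0.526 in limma, and -0.25 ± 0.15 in RCA. Without WT LCA replicate 3 it was -0.31 in LCA. A second Psmb8 probe with a mean of 121 differed by -0.04 in LCA. It read 134, 104 and 114 in KO LCA, against 129, 137 and 97.9 in WT LCA. The probes parted most on WT LCA replicate 3, which read 183 on the first and 97.9 on the second. Tap1 was above background on no array, at 82.7 to 99.6, and its small ligation differences lay within that range.

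Dtx3l and Parp9 encode partner enzymes, a ubiquitin ligase and an ADP-ribosyltransferase, that modify histones and whose annotated spans overlap on chromosome 16. Dtx3l read 112, 113 and 114 in KO LCA and 125, 113 and 109 in KO RCA, against 125, 136 and 134 in WT LCA and 135, 119 and 145 in WT RCA. KO LCA was the tightest group, at 1.08 (SD, n = 3) around a mean of 113, and all its arrays lay below all WT LCA arrays. The KO minus WT difference was -0.22 ± 0.08 in LCA, adjusted p = 0.605, and -0.20 ± 0.08 in RCA, adjusted p = 1.00 in limma. A second Dtx3l probe, above background on 3 arrays, differed by 0.09 and -0.10 in those comparisons. Parp9 was above background on 1 array. Parp14, another ADP-ribosyltransferase, was so on 11 arrays and ranged from 86.1 to 146.

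The sensors and RNA-binding effectors were mixed. Eif2ak2, the kinase PKR that stops translation on double-stranded RNA, and Trim25, a ubiquitin ligase that acts on the sensor RIG-I, each exceeded background on 11 arrays. Eif2ak2 ranged from 110.4 to 207 and Trim25 from 84.9 to 256, both without a group that stood apart. Trim25 was lowest on WT LCA replicate 3, at 84.9. Zbp1, a sensor of left-handed nucleic acid, was above background on 10 arrays. Ifih1, the sensor MDA5, was so on 1 array. Dhx58, the related helicase LGP2, read 160.0 on KO RCA replicate 1 and at most 101 on the others. Its other 3 probes read 134, 152 and 84.2 on that array.

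The remaining effectors lay mostly at background. Rsad2, viperin, makes a chain-terminating nucleotide, and Cmpk2, its neighbour on chromosome 12, is a mitochondrial nucleotide kinase. The Rsad2 probe read 94.4, 103 and 108 in KO LCA and 98.5, 141 and 187 in KO RCA, against 89.7, 88.2 and 172 in WT LCA and 93.1, 90.3 and 183 in WT RCA. The high arrays, above 140, were KO RCA replicates 2 and 3, WT LCA replicate 3 and WT RCA replicate 3, so they followed no group. Cmpk2 exceeded background on 3 arrays. The oligoadenylate synthetases make the messenger that turns on RNase L. Oas1a and Oas3 were above background on no array and Oas2 on 1. Their relatives Oasl1 and Oasl2 were so on 2 and 3 arrays. Oasl2 read 368 on WT RCA replicate 1 and at most 106 elsewhere, and its other probes read 94.8 and 87.2 on that array. Mx1 stayed between 74.0 and 89.3 and Mx2 between 84.7 and 114.

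**Figure D2:**
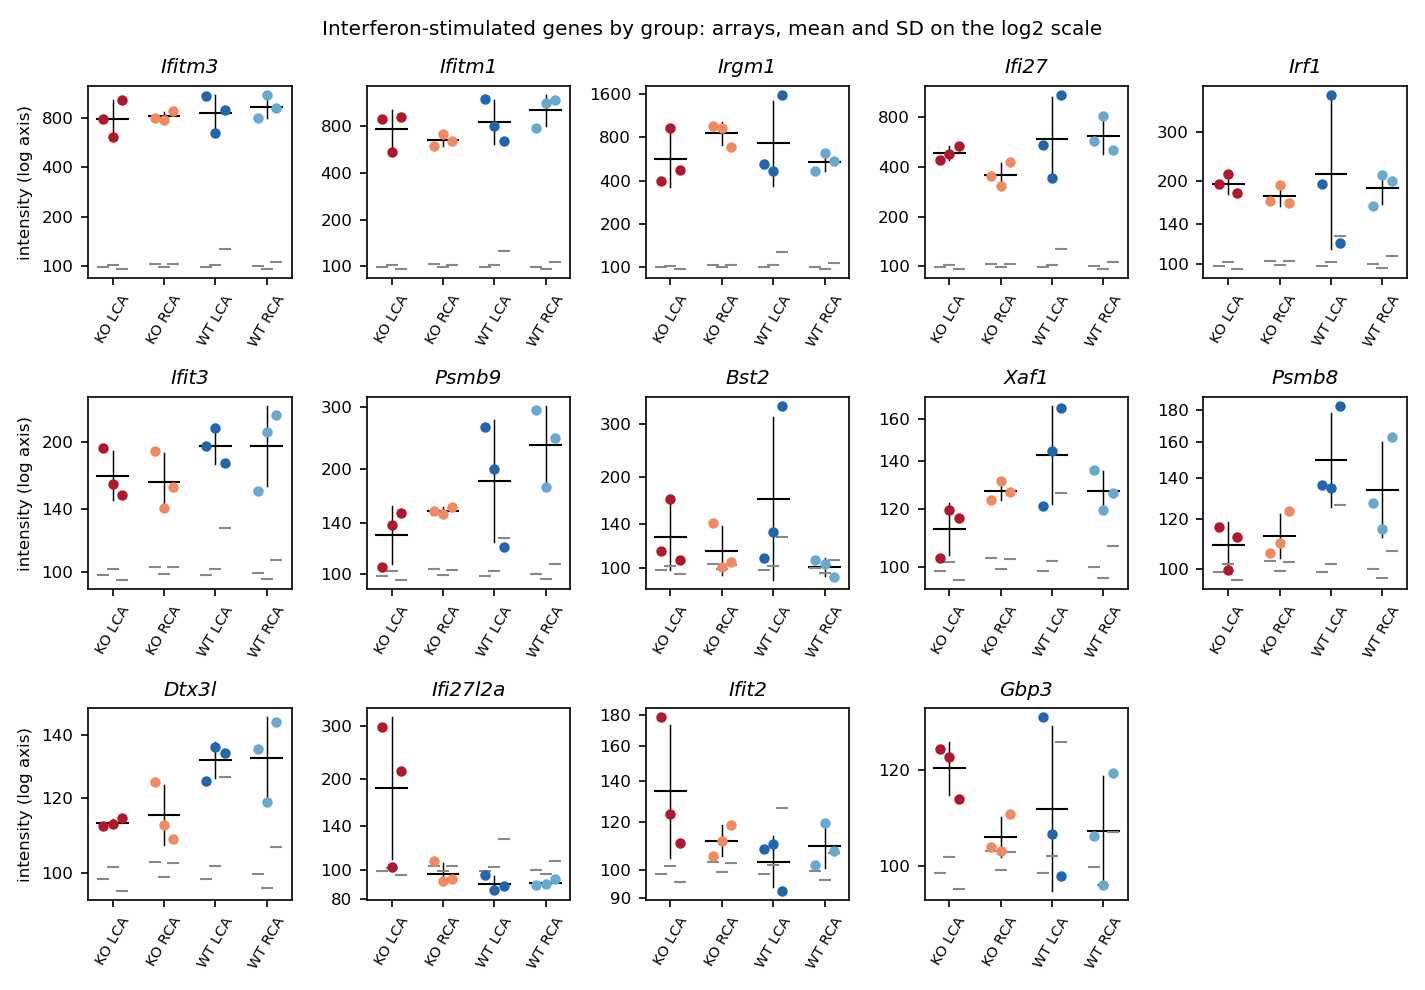
Intensity (log axis, each panel with its own range) of 14 members in KO LCA, KO RCA, WT LCA and WT RCA, with points for arrays, lines for the mean and SD on the log2 scale (n = 3 each) and grey dashes for each array's background level. Ifi27l2a reaches 297 and 213 on KO LCA arrays and stays at 107 or below on the other arrays, and without overlap Psmb9 lies lower in KO RCA than in WT RCA and Psmb8 and Dtx3l lower in KO LCA than in WT LCA.

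Single arrays rather than groups gave several of the highest values. For 6 members the highest array was at least 1.5 times the next. These were Irgm1 and Bst2 on WT LCA replicate 3, Irf1 on WT LCA replicate 2, Igtp on WT LCA replicate 1, Oasl2 on WT RCA replicate 1 and Dhx58 on KO RCA replicate 1. WT LCA replicates 1 and 3 held the highest value of 8 and 7 members, and no other array held that of more than 4. Such peaks and highest arrays were not counted over all genes, so these counts cannot be called particular to the members.  Relative to each member's own mean, the median member lay between -0.06 and 0.04 log2 units on the 12 arrays, lowest on KO LCA replicate 1 and highest on WT LCA replicate 1.

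**Figure D3:**
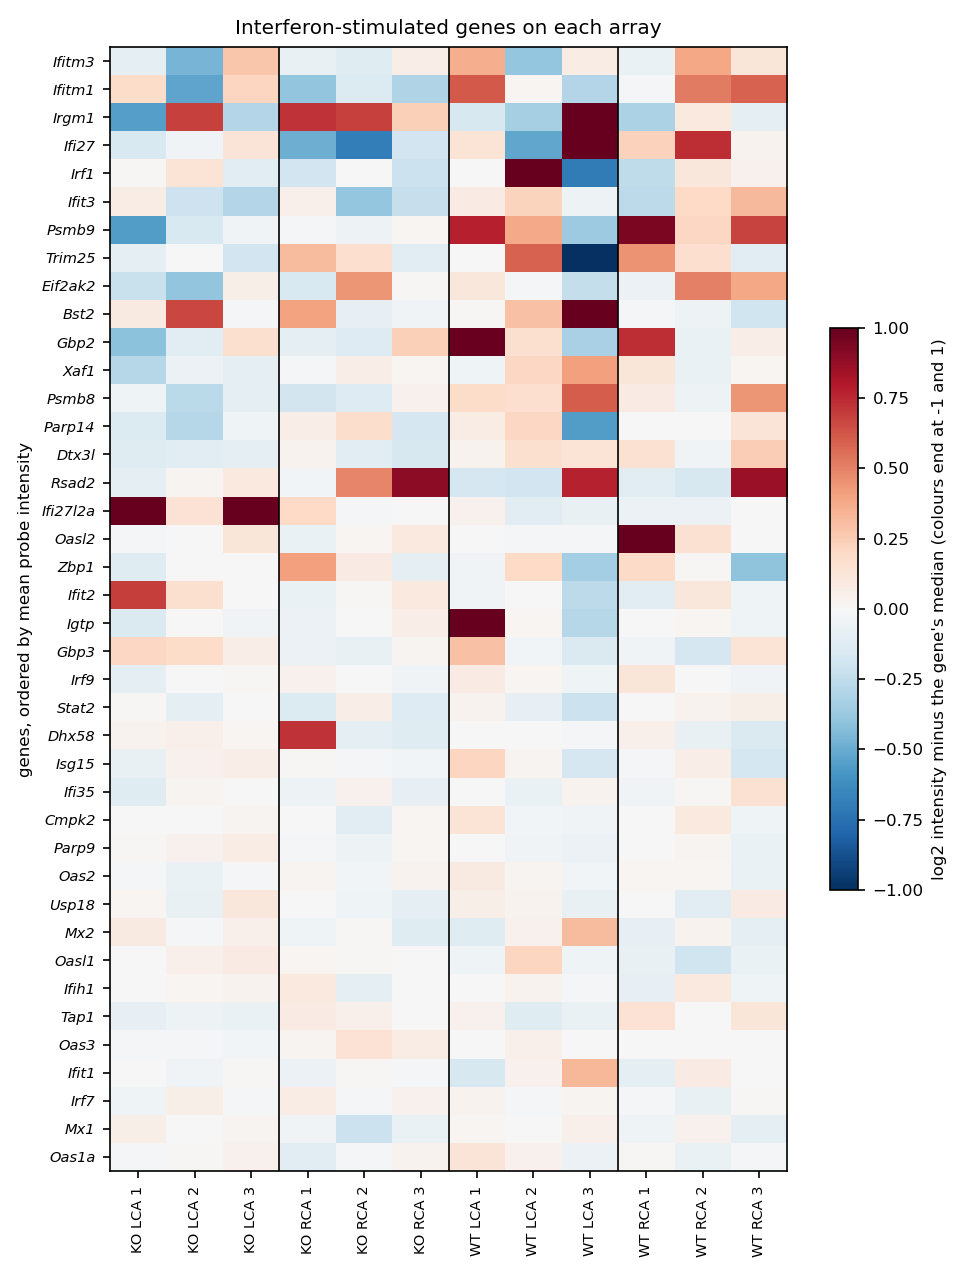
Each of the 40 members (rows) on each array (columns, by group and replicate), as log2 intensity minus the gene's median over the 12 arrays, with colours ending at -1 and 1. Dark cells are scattered over genes and arrays, with Ifi27l2a on KO LCA replicates 1 and 3 and several members on WT LCA replicates 1 and 3, and no column is dark throughout.

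One day of ligation was not followed by a joint shift of the interferon-stimulated genes in KO. Of the 40 members, 20 were higher and 20 lower in LCA than in RCA, and the median difference was 0.01, against -0.01 for all genes tested, of which 51.9% were below 0. Among the 35 members that passed the filter, as all genes tested had, the median was -0.0034, with 17 higher and 18 lower. Of the 35 tested, 2 members lay higher in LCA without overlap, Ifi27 and Gbp3, where 8.44% of genes did. Another 2 lay lower, Xaf1 and Tap1, where 11.5% of genes did. These shares, 2 of 35 each, are at or below those of all genes. In WT, 22 members were higher and 18 lower, with a median of 0.01, against -0.0012 for all genes tested, of which 50.4% were below 0. Among the 35 tested members the WT median was -0.0012, with 17 higher and 18 lower. Bst2 and Oasl1 lay higher in WT LCA without overlap, where 4.49% of genes did. No tested member lay lower, where 6.6% of genes did. Oasl1 was above background on 1 of the 3 WT LCA arrays, and its difference was 0.15. The KO and WT ligation effects were compared by the interaction, in which 19 members were above 0 and 21 below. The median was -0.01, against -0.01 for all genes, of which 53% were below 0. Among the 35 tested members it was 0.0075, with 18 above 0 and 17 below.

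Between the lines, more members were lower than higher in KO on both sides, where smooth muscle and erythrocyte markers were higher in KO, as given above. In RCA, 14 members were higher and 26 lower in KO than in WT, with a median of -0.02, against 0.00216 for all genes, of which 49% were below 0. Among the 35 tested members the median in RCA was -0.0275, with 12 higher and 23 lower. Ifitm1, Ifi27 and Psmb9 lay lower in KO RCA without overlap, 3 of 35 tested, where 5.18% of genes did. Irgm1 and Oasl1 lay higher, 2 of 35, where 6.79% did. Oasl1 was above background on no array of KO RCA or WT RCA, so its difference there describes the probe's floor. In LCA, 11 members were higher and 29 lower in KO, with a median of -0.04, against -0.01 for all genes, of which 52.9% were below 0. Among the 35 tested members the median in LCA was -0.0410, with 11 higher and 24 lower. Xaf1, Psmb8 and Dtx3l lay lower in KO LCA without overlap, 3 of 35, where 5.52% of genes did. Ifi27l2a, Ifit2, Parp9 and Dhx58 lay higher, 4 of 35, where 8.22% did. Parp9 and Dhx58 differed there by only 0.07 and 0.04.

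The RCA and LCA comparisons of KO with WT share no arrays, but the labels do not say whether they share mice. Of the 35 members tested, 17 were lower in KO in both, or 48.6%, where 27.4% of all genes were. Higher in both were 5 members, or 14.3%, where 25.4% of all genes were. Members share signals with each other, so this count carries no test. The lean was small in size. The median difference of the 40 members in either artery was within 0.04 log2 units of 0. The pooled SD of the members' median between replicate arrays was 0.03. In LCA the lean also moved with single arrays. Without WT LCA replicate 1 the median in LCA was -0.00478, and without WT LCA replicate 3 it was -0.05. In RCA the median stayed below 0, from -0.0447 to -0.0180, whichever array was left out. Among the 17 were Ifitm1, Ifitm3, Ifi27, Ifit3, Psmb8, Psmb9 and Dtx3l.

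**Figure D4:**
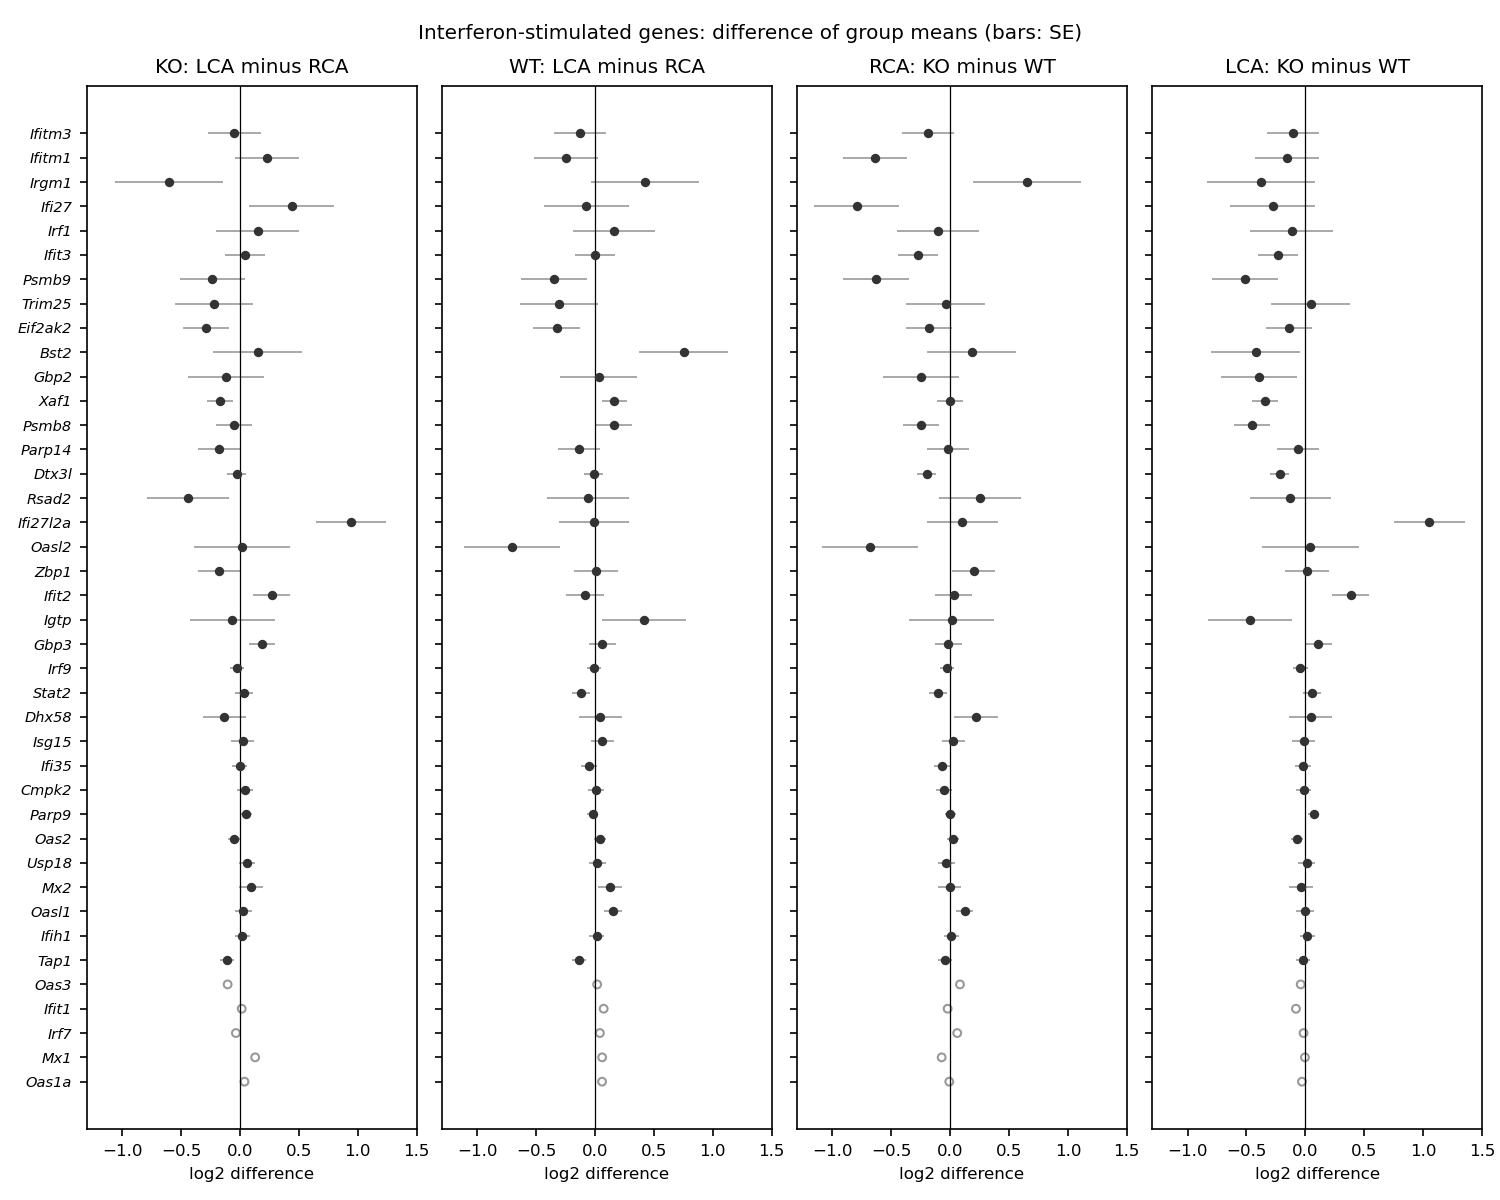
Log2 difference of group means (points) with SE (bars) for the 40 members in 4 comparisons, LCA minus RCA in KO and in WT and KO minus WT in RCA and in LCA, with open points for 5 members that were not tested. Ifi27l2a lies at 0.94 in KO ligation and 1.05 in KO minus WT LCA, most other members lie within 0.5 of 0, and no member passed the adjusted threshold.

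A wider list of 61 further interferon-stimulated genes that were tested held no gene past the adjusted threshold either. In KO minus WT LCA, 18 were higher and 43 lower, with a median of -0.05, so that 70.5% were lower, where 52.9% of all genes were. In RCA 32 were higher and 29 lower, or 47.5% lower, where 49% of all genes were, so the lean of the members was not seen there. For ligation, 38 or 62.3% were lower in KO, where 51.9% of all genes were, and 23 or 37.7% in WT, where 50.4% were. In KO minus WT LCA 4 of the 61 had an unadjusted p under 0.05, all lower in KO, and this share of 6.56% was near the 6.81% of all genes. The smallest p there belonged to Gbp9, a guanylate-binding protein, with intensities of 92.3, 102 and 96.1 in KO LCA and 115, 108 and 102 in KO RCA, against 114, 108 and 173 in WT LCA and 117, 131 and 109.6 in WT RCA. All KO LCA arrays lay below all WT LCA arrays, with a difference of -0.42 ± 0.16, adjusted p = 0.623 in limma. Without WT LCA replicate 3 it was -0.20. Ifitm2, a further member of the family of Ifitm1 and Ifitm3, read 752, 441 and 682 in KO LCA and 550.0, 625 and 540.4 in KO RCA, against 1291, 1111 and 652 in WT LCA and 684, 1052 and 865 in WT RCA. It differed by -0.68 ± 0.28 in LCA, adjusted p = 0.671, and WT LCA replicate 3 overlapped the KO arrays.

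The list also held large differences that moved with single arrays. Uba7, the enzyme that activates ISG15 for attachment, read 135, 194 and 191 in KO LCA and 626, 156 and 849 in KO RCA, against 198, 213 and 105 in WT LCA and 171, 211 and 152 in WT RCA. KO RCA replicates 1 and 3 stood far above the other arrays and replicate 2 did not. The KO minus WT difference in RCA was 1.31 ± 0.55, adjusted p = 1.00 in limma, and ranged from 0.83 to 2.05 without 1 array. Ligation in KO gave -1.35 ± 0.55, adjusted p = 0.719. Trim34a, of the TRIM family of ubiquitin ligases, read 108, 108 and 107 in KO LCA and 123, 96.4 and 109 in KO RCA, against 108, 129 and 117 in WT LCA and 305, 149.8 and 118 in WT RCA. It differed by -0.69 ± 0.28 in RCA, adjusted p = 1.00, and by -0.29 without WT RCA replicate 1.

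Genes upstream of the response did not pass either. Of 25 tested genes for interferons, receptors and JAK-STAT signalling, 14 were higher and 11 lower in KO than in WT LCA, and 11 were higher and 14 lower in RCA. The shares lower were 44.0% and 56.0%, where 52.9% and 49% of all genes were. Ifnar2, a chain of the type I interferon receptor, read 104, 99.3 and 105 in KO LCA and 106, 107 and 105 in KO RCA, against 114, 200.2 and 119 in WT LCA and 108, 110.4 and 94.7 in WT RCA. WT LCA lay highest, mainly through replicate 2, and the KO minus WT difference in LCA was -0.44 ± 0.18, adjusted p = 0.667 in limma, or -0.18 without that array. Ptpn2, a phosphatase that takes phosphate from JAK1, read 99.6, 106 and 106 in KO LCA and 121, 114 and 134 in KO RCA, against 98.8, 96.8 and 96.0 in WT LCA and 108, 102 and 97.3 in WT RCA. Its KO RCA arrays were the 3 highest of all, with a KO minus WT difference of 0.26 ± 0.07 in RCA, adjusted p = 0.924. Pias1, a SUMO ligase, read 157, 155 and 154 in KO LCA and 150.2, 151 and 144 in KO RCA, against 158, 165 and 111 in WT LCA and 314, 176 and 210.3 in WT RCA. Its WT RCA arrays lay above all others, and the difference in RCA was -0.61 ± 0.20, adjusted p = 1.00, or -0.37 without WT RCA replicate 1.

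Of 14 tested nucleic acid sensors and adaptors, 6 were higher and 8 lower in KO than in WT LCA, or 57.1% lower. Mavs, the adaptor on mitochondria through which RNA sensors signal, read 102, 111 and 102 in KO LCA and 91.3, 91.3 and 89.1 in KO RCA, against 91.6, 92.2 and 93.1 in WT LCA and 96.0, 95.5 and 101 in WT RCA. KO LCA lay above every other group without overlap, although by little. The difference was 0.19 ± 0.05 over WT LCA, adjusted p = 0.376, and 0.21 ± 0.05 over KO RCA, adjusted p = 0.715 in limma. Only the KO LCA arrays were above background for Mavs, so these differences lie near the probe's floor. Of 24 tested genes of antigen presentation and the immunoproteasome, a list that leaves out the 3 members above, 5 were higher and 19 lower in KO than in WT RCA, with a median of -0.13. In LCA 7 were higher and 17 lower, with a median of -0.11, and none passed. The shares lower, 79.2% and 70.8%, stood beside 49% and 52.9% of all genes. Tapbp, which loads peptide onto class I molecules, read 1442, 1339 and 1334 in KO LCA and 1304, 1317 and 1268 in KO RCA, against 2114, 1612 and 1558 in WT LCA and 1524, 1612 and 996 in WT RCA. All KO LCA arrays lay below all WT LCA arrays, with a difference of -0.35 ± 0.17, adjusted p = 0.756.

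Inflammatory genes driven by NF-kappaB leaned the other way between the lines. Of 15 tested, 12 were higher and 3 lower in KO than in WT RCA, and 9 were higher and 6 lower in LCA, again with none past the adjusted threshold. Of all genes, 49% and 52.9% were lower. Icam1, an adhesion molecule of endothelium, read 665, 608 and 452 in KO LCA and 675, 702 and 843 in KO RCA, against 403, 315 and 535 in WT LCA and 276, 250.0 and 286 in WT RCA. The KO RCA arrays lay above the WT RCA arrays, with a difference of 1.44 ± 0.20, adjusted p = 0.203 in limma. Sele, E-selectin, which captures leukocytes, read 271, 245 and 287 in KO LCA and 177, 331 and 548 in KO RCA, against 125, 101 and 177 in WT LCA and 106, 91.5 and 106 in WT RCA. It was higher on every KO RCA array than on any WT RCA array, by 1.65 ± 0.35, adjusted p = 0.578.

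Sums of leukocyte markers, which bear on how many responding immune cells an artery holds, overlapped between the groups with every marker counted. The 8 general leukocyte markers summed to 810.1 to 1315 in KO LCA and 791 to 1213 in KO RCA, against 822 to 1357 in WT LCA and 772 to 1329 in WT RCA, with 2 and 1 above background on all 3 arrays in KO LCA and KO RCA, against 1 and 1 in WT LCA and WT RCA. Without Arhgdib, the brightest of the 8, the other 7 summed to 671.8 to 1053 in KO LCA and 643 to 732 in KO RCA. In WT LCA and WT RCA they summed to 713 to 1105 and 638 to 671.6. WT LCA, and by little KO LCA, then lay above WT RCA without overlap. Of the 8, 6 were higher and 2 lower in WT LCA than in WT RCA, and 4 were higher and 4 lower with ligation in KO. The 12 markers of monocytes and macrophages summed to 1251 to 1809 in KO LCA and 1135 to 1357 in KO RCA, against 1128 to 1694 in WT LCA and 1135 to 1297 in WT RCA. Of these, 3 and 2 were above background on all 3 arrays of KO LCA and KO RCA, against 0 and 0 in WT LCA and WT RCA. The 7 neutrophil markers summed to 726 to 865 in KO LCA and 638 to 1239 in KO RCA, against 673 to 1679 in WT LCA and 658 to 860.0 in WT RCA, with 2 and 0 above background on all 3 arrays of KO LCA and KO RCA, against 1 and 1 in WT LCA and WT RCA. WT LCA replicate 1 had the highest sum of both the leukocyte and the neutrophil markers, 1357 and 1679. On it Ptprc, the leukocyte antigen CD45, read 281, and S100a8, a calcium-binding protein of neutrophils, read 422. Both were chosen after their values were seen, and read at most 103 and 118 on the other arrays. This is the array that held the highest value of 8 members, a count not made for all genes, and the peaks of Igtp and Gbp2. Without this array the members' median in LCA was -0.00478. The part of these cells in the members' values was not tested.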

How the data were processed

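RNA from 12 carotid artery samples was measured on one-colour Illumina arrays. The deposited values are linear intensity values for 45281 probes, and the sorted values of any pair of arrays differed by at most 1.01 times at each rank, so the authors had quantile normalized them. The sources used here name no scanner, background step or tool. Symbols came from the platform annotation, with 1 symbol for 34885 probes, several for 18 and none for 10378. Probes with 1 symbol that reached the median of their array on at least 3 arrays were kept, and the kept probe with the highest mean stood for its gene. All 12 arrays entered 1 limma fit (version 3.58.1, R 4.3.3) of log2 intensity on 4 group means with eBayes, tested on simulated data, with two-sided p-values adjusted over 15395 genes (Benjamini-Hochberg) and a threshold of 0.05. Chips are not named there either, so no slide block was fitted, and the number of arrays limits the precision. Values on every array were given for members above background on all 3 arrays of a group that were among the 4 smallest p of a comparison or the 6 highest mean intensities, and the 2 smallest p of each further list could be named. Rsad2, which was above background on all 3 arrays of no group, was also given on every array, outside this rule. The members and lists were chosen with earlier results of these data known. Names of neighbouring genes came from RefSeq (GRCm38.p6). Alternatives covered normalization, filter, pseudocount, probes, weights, replicate block and left-out arrays.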

Additional observations from a re-analysis of the deposited data

How the results depend on the processing

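The main limits were signal and number. With 7 of 40 members above background on all 12 arrays and 3 arrays in a group, small differences could not be measured, and differences of members near background describe the probe's floor. No result changed sign past a threshold. The Ifitm3 difference in KO against WT LCA, -0.11, was 0.0720 with array weights, and that of Tapbp, which is no member, was -0.48 with adjusted p = 0.0493 with the mean of all probes. No member passed under any alternative that kept all 12 arrays. The count of all genes past the threshold in KO against WT LCA, 1, was 0 with a trend and robust eBayes, 0 with only the 2 groups compared, 2 with array weights, 9 with the filter on all 12 arrays and 15 with the mean of all probes. In the WT ligation comparison that count, 0, was 1 with array weights and 3 with the mean of all probes. The causes were not tested.

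Leaving out 1 array at a time gave 0 to 6 genes for ligation in KO, 0 to 11 in WT, 0 to 3 in KO against WT RCA, 0 to 19 in KO against WT LCA and 0 to 3 for the interaction. Members past the threshold numbered 0 to 1 for ligation in KO and 0 to 1 in KO against WT LCA, the 1 being Ifi27l2a without KO LCA replicate 2, and 0 in the other comparisons. The members' median then ranged from -0.0268 to 0.0137 for ligation in KO, -0.0453 to -0.00478 in KO against WT LCA and -0.0526 to 0.0501 for the interaction. The median ranged from -0.0122 to 0.0288 for ligation in WT and from -0.0447 to -0.0180 in KO against WT RCA. Small differences of single genes turned sign when 1 array was left out. In KO against WT LCA the ranges were -0.309 to 0.0794 for Ifitm3, -0.362 to 0.0933 for Ifitm1 and -0.532 to 0.361 for Irf1. In WT ligation the range for Gbp3 was -0.0639 to 0.154. The alternatives for genes that are no members were added after the data were seen. The median was not recomputed under array weights. With the replicate number as a block, no member passed, and the Ifi27l2a ligation difference in KO stayed at 0.94 with adjusted p = 0.780 for a fixed and 0.607 for a random block. Same-numbered LCA and RCA arrays of a line had correlations of their deviations from -0.02 to 0.07, none over 0.1. With 3 arrays in a group, such values cannot settle whether same-numbered arteries came from the same mouse, and the labels do not say. In WT each LCA array correlated best with its own number, and in KO this held for replicate 3 only.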
